A study of Mus musculus with 22 samples.

Results

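The effect of CHIR99021, an inhibitor of the kinase GSK3, on mouse embryonic stem (ES) cells that already received the MEK inhibitor PD0325901 was measured on Illumina MouseRef-8 bead arrays. The comparison took the 4 arrays labelled 2i (PD0325901 and CHIR99021) and the 6 labelled PD (PD0325901 alone) of lines Royan B18 and Royan B20, which together are 10 of the 22 arrays of the series. The 2i arrays were 2 of B18 and 2 of B20, and the PD arrays were 3 of each line. Both lines come from C57BL/6 blastocysts and were derived and held for more than 10 passages in serum-free N2B27 medium with PD0325901, SB431542 (an inhibitor of the Activin and Nodal type I receptors) and LIF, a condition called R2i. They were then moved, side by side, into PD or 2i medium for 10 passages. N2B27, LIF, PD0325901 and the earlier SB431542 are therefore common to both groups, and the media differ in CHIR99021. The 6 R2i arrays of the same lines (3 each) entered the fit to help estimate the spread between arrays and are compared with 2i near the end.

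GSK3 marks beta-catenin for degradation, so that its inhibition stabilises beta-catenin, which acts with TCF/LEF proteins in the nucleus as in canonical Wnt signalling. In mouse ES cells beta-catenin is known to relieve repression of self-renewal genes by Tcf7l1 (also called Tcf3). GSK3 also phosphorylates glycogen synthase, MYC, the sterol regulator SREBP and other proteins, and the pairing of a GSK3 and a MEK inhibitor is the standard serum-free medium for ground-state ES cells.

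Between 10822 and 11576 of 25697 probes (42.1% to 45.0%) were detected on each of the 10 arrays, at a detection p below 0.01. All arrays of a line were on 1 chip, which makes the line and its chip inseparable, and a medium had the same array positions on each chip, so its effect and that of position cannot be told apart. Whether the replicates of a group came from different cultures is not stated, and the p-values therefore rest on a spread that may be technical. B20 PD replicate 3 lay farthest from its group (root mean square deviation 0.17 on the log2 scale, against 0.107 to 0.144 on the other 9 arrays). Outcomes without it are given for Ctnnb1, the immediate-early genes and the number of line differences, but not for every result. All 10 ES cell markers examined (Pou5f1, Nanog, Sox2, Zfp42, Esrrb, Klf4, Tdgf1, Dppa5a, Fbxo15 and Utf1) were detected in both media, with summed signals of 51331 to 54459 in 2i and 54646 to 57664 in PD. Of 9 feeder fibroblast markers 7 were detected on 0 of the 10 arrays, among them Col1a1, Col1a2 and Col3a1.

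Of 9207 genes tested, 2176 (23.6%) differed between 2i and PD, of which 1049 (11.4% of all) were higher and 1127 (12.2%) lower in 2i at a Benjamini-Hochberg adjusted p below 0.05 in limma. Most of these changes were small. In 1611 genes the change was under 0.5 on the log2 scale, in 488 it lay between 0.5 and 1, and 77 genes (0.836% of those tested) passed with a change of at least 1, which is called a 2-fold call here. Scaling every array to the median of all probes moved the median gene by -0.10 and gave 533 higher and 1968 lower genes, with 38 and 46 2-fold calls, so small changes are read with that shift in view. The 10 arrays alone, with line as an additive term, gave 766 higher and 810 lower genes, with 43 and 30 2-fold calls. Of the 77 in the main fit, 43 (0.467%) were higher and 34 (0.369%) lower in 2i. All 77 moved the same way in B18 and B20, as did 63.7% of all genes tested. In 70 of them the 2i and PD arrays did not overlap, and 43 also met the 2-fold call within each line alone. The 77 were picked by their change on these same arrays, which favours a shared direction and a lack of overlap, so these counts are only descriptions. Detection limited the higher genes more than the lower ones, in that 23 of the 43 were detected on fewer than 6 PD arrays (9 of them on none). Among the 34 lower genes, 9 were detected on fewer than 4 2i arrays.

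Levels below are normalised log2 intensities of 1 probe per gene, which can be compared between arrays but not between genes. Changes are differences of these levels, 2i minus PD, with each line weighted equally and with the moderated standard error (SE) of the limma fit. Because the arrays hold RNA from whole cultures, fewer cells that express a gene and less RNA per cell cannot be told apart.

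The gene with the highest rise was Fkbp6, which encodes an immunophilin needed for meiosis and piRNA production in male germ cells. It read 9.35 and 9.61 in the B18 and 9.65 and 9.82 in the B20 2i arrays, against 6.42, 6.42 and 6.41 in the B18 and 6.75, 6.85 and 7.46 in the B20 PD arrays. Every 2i array was thus above every PD array, and the change was 2.89 ± 0.12 (7.41-fold, adjusted p = 5.22e-11, limma). Rhox5, an X-linked homeobox gene of reproductive tissues, read 7.54 and 7.86 in B18 and 7.42 and 8.17 in B20 cells in 2i, against 5.56, 5.42 and 5.24 in B18 and 4.65, 5.02 and 5.18 in B20 cells in PD. The groups did not overlap, and the change was 2.57 ± 0.13 (5.93-fold, adjusted p = 9.03e-10, limma). Rhox5 was detected on 4 of 6 PD arrays, so the size of this change is imprecise.

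Gpx2, a glutathione peroxidase, lay between 8.44 and 8.67 on the 4 2i arrays and between 6.03 and 6.70 on the 6 PD arrays. Its 2i arrays were all higher, by 2.16 ± 0.08 (4.47-fold, adjusted p = 2.71e-11, limma). Adh1, an alcohol dehydrogenase that oxidises retinol among other substrates, read 6.71 and 6.80 in B18 and 7.44 and 7.15 in B20 cells in 2i, against 4.58, 4.64 and 4.42 in B18 and 5.81, 5.45 and 5.09 in B20 cells in PD. In PD it was higher in each B20 array than in any B18 array, and the rise in 2i was 2.21 in B18 and 1.84 in B20. Adh1 was detected on only 3 of 6 PD arrays. Its low PD levels therefore lay near background, which limits the precision of these sizes. Ctsc, a lysosomal dipeptidyl peptidase, lay between 8.70 and 9.09 in 2i, against 6.61 to 7.58 in PD, and rose by 1.78 ± 0.07 (adjusted p = 5.22e-11, limma).

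Xlr4a, of an X-linked multigene family, was detected on 4 of 4 2i arrays and on 0 of 6 PD arrays. Its mean level was 6.65 in 2i and 4.64 in PD, and with undetected arrays set to at least the lowest detected signal of the same array it was at least 2.85-fold higher in 2i (adjusted p = 2.39e-09, limma). Trim50, which encodes an E3 ubiquitin ligase, was likewise detected on 4 of 4 2i and 0 of 6 PD arrays, with mean levels of 6.01 in 2i and 4.45 in PD and a difference of at least 1.82-fold (adjusted p = 2.39e-09, limma). A gene named LOC100047583 in the files, which was detected on 4 of 4 2i and 0 of 6 PD arrays, was at least 3.12-fold higher (mean levels 6.78 in 2i and 4.53 in PD, adjusted p = 1.73e-11, limma). It was singled out after its values were seen. Among genes with an established name the other 8 of the 15 highest rises were Nt5e (the ecto-5'-nucleotidase CD73), Fthl17f (a ferritin heavy chain-like gene), Prxl2a, Tex19.2 (a germ cell gene), Accsl, Bcas1, Glrx (glutaredoxin) and Slc12a8, with changes of 1.45 to 1.77. Tex19.2 was detected on 1 of 6 PD arrays, Nt5e, Fthl17f and Accsl on 3 and Bcas1 on 5, which limits the precision of their sizes. All 15 of the named genes, which were picked by their change on these arrays, had every 2i array above every PD array.

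**Figure D1:**
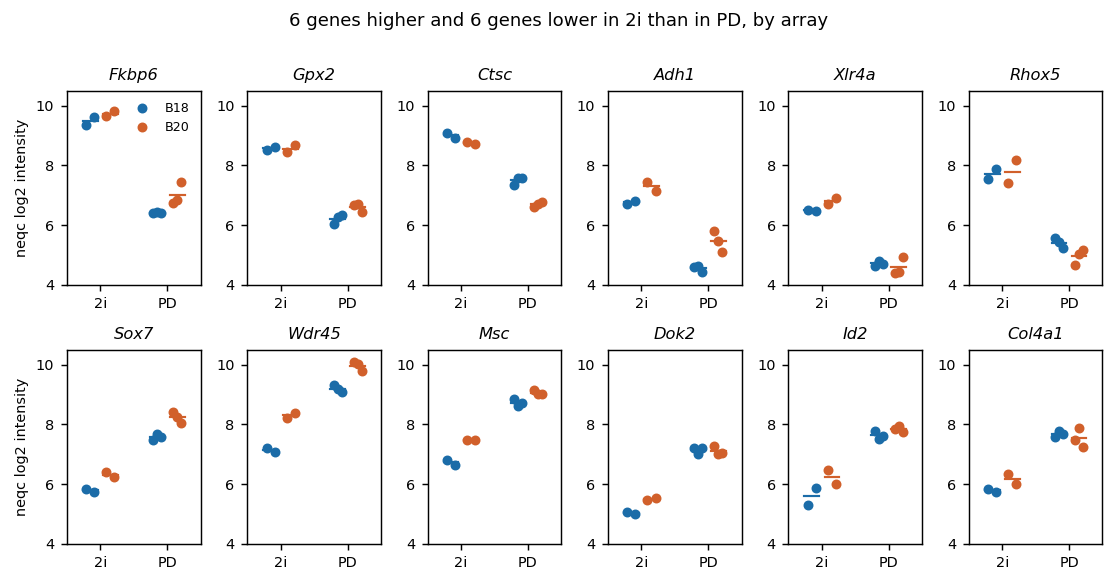
Normalised log2 intensity (vertical axis) of 6 genes higher (top row) and 6 lower (bottom row) in 2i than in PD, with 1 point per array, B18 in blue and B20 in orange, 2i on the left of each panel, and a bar at the mean of each line and medium. In each of the 12 panels the 4 2i points lie wholly above or wholly below the 6 PD points.

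The 15 deepest falls were led by Spink1, a secreted inhibitor of trypsin. It was detected on 1 of 4 2i arrays and 6 of 6 PD arrays, at 4.71 to 5.41 in 2i and 6.70 to 8.13 in PD, a change of -2.17 ± 0.18 (adjusted p = 2.5e-07, limma). Dpysl4, of the collapsin response mediator family, lay between 6.74 and 7.44 in 2i and between 8.64 and 9.57 in PD, a change of -2.04 ± 0.14. Its 2 other detected probes gave only -0.26 and -0.44, so the size depends on the probe.

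Sox7, a transcription factor of the endoderm and endothelium, read 5.84 and 5.74 in B18 and 6.40 and 6.22 in B20 cells in 2i, against 7.49, 7.67 and 7.58 in B18 and 8.40, 8.25 and 8.06 in B20 cells in PD. Every 2i array was lower, and the change was -1.86 ± 0.09 (adjusted p = 3.32e-10, limma). Wdr45, an autophagy gene on the X chromosome, read 7.22 and 7.06 in B18 and 8.21 and 8.40 in B20 cells in 2i, against 9.32, 9.20 and 9.07 in B18 and 10.10, 10.01 and 9.79 in B20 cells in PD. The change was -1.86 ± 0.09 (adjusted p = 2.08e-10, limma), although the B20 2i arrays were above the B18 2i arrays.

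Dok2, an adaptor protein that dampens tyrosine kinase signalling, lay between 4.98 and 5.54 in 2i and between 6.99 and 7.27 in PD (change -1.86 ± 0.07, adjusted p = 3.78e-11, limma). Msc (musculin, a basic helix-loop-helix repressor) lay between 6.66 and 7.49 in 2i and between 8.61 and 9.14 in PD (change -1.77 ± 0.09). Both sets of arrays were apart without overlap. Col4a1 and Col4a2, neighbouring genes for the type IV collagen chains of basement membranes, fell by 1.62 and 1.39 on the log2 scale, Igfbp7 (a secreted IGF-binding protein) by 1.68, and Irs2 (an insulin receptor substrate) by 1.53. The remaining members of the 15 were Id2, Ccn1, Ccn2, Fosb and Egr2, which are described with their pathways below.

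Few genes of the canonical Wnt response could be measured. Of 28 listed targets 11 were tested, of which 2 rose (18.2%, against 11.4% of all genes), 3 fell (27.3%, against 12.2%) and 6 did not pass (median change -0.16, or -0.08 with Jun at its bound, and 0.01 in B18 and 0.15 in B20, against -0.01 over all genes tested). Axin2, a feedback inhibitor widely used as a readout of beta-catenin activity, read 6.80 and 6.51 in B18 and 6.27 and 6.36 in B20 cells in 2i, against 5.76, 5.71 and 5.79 in B18 and 5.91, 6.19 and 5.44 in B20 cells in PD. Every 2i array was above every PD array, and the change was 0.68 ± 0.11 (1.61-fold, adjusted p = 0.000348, limma). Within B18 it was 0.91 (adjusted p = 0.0011) and within B20 0.46 (adjusted p = 0.067), with an adjusted p of 0.36 for the difference between the lines (limma).

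Cdx1, a caudal homeobox gene, read 5.97 and 7.0 in B18 and 6.28 and 5.72 in B20 cells in 2i, against 5.69, 5.07 and 5.48 in B18 and 5.48, 5.87 and 4.92 in B20 cells in PD. The groups overlapped through 1 array on each side. The change was 0.83 ± 0.22 (adjusted p = 0.0106, limma), and without B18 2i replicate 2, its highest array, it was 0.57 with an adjusted p of 0.0789. Without B20 2i replicate 1 the adjusted p was 0.063.

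Ccnd1 (cyclin D1) fell by 0.29 and Nkd2, an inhibitor of Dishevelled, by 0.25 on the log2 scale. Jun, detected on 0 of 4 2i and 4 of 6 PD arrays, was at least 1.06-fold lower in 2i, with mean levels of 4.64 in 2i and 5.21 in PD (adjusted p = 0.0149, limma). Notum, a secreted Wnt-inactivating enzyme, showed -0.61 in B18 (adjusted p = 0.0032) and 0.28 in B20 (adjusted p = 0.15), and the difference between the lines passed (0.89, adjusted p = 0.017, limma). Only 1 target rose without B18 2i replicate 2 or B20 2i replicate 1, and 1 fell without B18 2i replicate 1. Lef1, T and Myc were not among the genes tested.

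Among 30 measured components of the pathway 3 rose (10%, against 11.4% of all genes), 6 fell (20%, against 12.2%) and 21 did not pass. Those that fell were Wnt6 (a ligand, -0.74), Wls (the carrier that exports Wnt proteins, -0.73), Pygo1 (a beta-catenin cofactor, -0.51), Tcf7l1 (the repressor, -0.47), Fzd6 (a receptor, -0.46) and Tle4 (a corepressor, -0.26). The receptors Lrp5 (0.38) and Fzd7 (0.37) and the secreted Dkk3 (0.33) rose. Tcf7l1 lay between 9.89 and 10.32 on the 2i arrays and between 10.54 and 10.72 on the PD arrays, which did not overlap (change -0.47 ± 0.08, adjusted p = 0.000314, limma). Gsk3b itself showed 0.22 ± 0.09 (adjusted p = 0.0853) and Ctnnb1, which encodes beta-catenin, -0.17 ± 0.07 (adjusted p = 0.0753, limma). Without B20 PD replicate 3 the change of Ctnnb1 was -0.195 and passed (adjusted p = 0.0351, limma). The detected probes of Ctnnb1 disagreed in sign, at -0.17, -0.29 and 0.29.

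Most pluripotency genes did not pass, and more fell than rose. Of 23 naive pluripotency genes 2 rose (8.7%), 5 fell (21.7%) and 16 did not pass (median -0.04), against 11.4% higher and 12.2% lower over all genes. Of 16 general ones 1 rose, 5 fell (31.2%) and 10 did not pass (median -0.11). Under median scaling 0 naive genes rose and 7 fell, and without B18 or B20 2i replicate 1 only 3 general ones fell. Esrrb, a direct target of Tcf7l1 repression in ES cells, was at 13.11 to 13.32 in 2i and 13.13 to 13.35 in PD, with a difference of -0.02 (95% interval -0.17 to 0.13). The intervals were -0.22 to 0.04 for Pou5f1 (Oct4), -0.22 to 0.13 for Sox2, -0.12 to 0.23 for Klf2 and -0.17 to 0.24 for Tbx3. These intervals exclude a 2-fold change in either direction.

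Nanog read 11.90 and 11.90 in B18 and 12.23 and 12.17 in B20 cells in 2i, against 12.26, 12.49 and 12.49 in B18 and 12.17, 12.61 and 12.43 in B20 cells in PD. The B18 groups were apart and the B20 groups overlapped. The change was -0.36 ± 0.08 (adjusted p = 0.00482, limma). Prdm14, a repressor of primed and germ layer genes, fell by 0.58, Dppa4 by 0.37, Klf4 by 0.34 and Zfp57, which protects imprints, by 0.22 on the log2 scale. Mylpf (0.47) and Pecam1 (0.36) rose, but neither passed under median scaling. Of the general genes Alpl, the tissue-nonspecific alkaline phosphatase used to stain ES colonies, lay between 8.79 and 9.36 in 2i and between 8.01 and 8.63 in PD (change 0.76 ± 0.11, adjusted p = 7.04e-05, limma). Dnmt3l, a cofactor of de novo DNA methylation, lay between 12.61 and 13.20 in 2i and between 13.29 and 13.61 in PD (change -0.54 ± 0.07), again without overlap.

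Otx2, a transcription factor that drives the exit from the naive to the primed state, fell in each line. It read 6.73 and 6.84 in B18 and 8.24 and 8.0 in B20 cells in 2i, against 8.23, 8.39 and 8.26 in B18 and 9.27, 9.17 and 8.88 in B20 cells in PD. Within each line the groups were apart, while the B20 2i arrays reached the level of the B18 PD arrays, and the change was -1.25 ± 0.08 (adjusted p = 1.56e-08, limma). Of the other 11 measured primed epiblast genes Etv4 (0.52), Zic2 (0.31) and Tead2 (0.27) passed as higher and 8 did not pass, among them the de novo methyltransferase Dnmt3b (95% interval -0.07 to 0.24). All 3 of these rises lost the adjusted p of 0.05 without B20 PD replicate 1 and under median scaling. Fgf5 was not among the genes tested.

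Many genes of differentiated lineages were not among the genes tested. Those measured fell more often than they rose, but outside endoderm most of them did not pass. Of 13 measured genes of primitive and definitive endoderm 7 fell (Sox7, Col4a1, Col4a2, Dab2, Lama1, Lamc1 and Srgn), 2 rose (Amn and Hnf4a) and 4 did not pass. That is 53.8% lower and 15.4% higher, against 12.2% and 11.4% of all genes. The median change was -0.34, or -0.28 with undetected genes at their bounds. It was -0.68 in B18 and 0.005 in B20, so the list as a whole was lower in B18 only. Among genes detected on all 16 arrays 4 fell. Of the 7 primitive endoderm markers used to check the cultures, Gata4, Gata6, Sox17, Pdgfra and Afp were detected on 0 of the 10 arrays, Sox7 on all 10 and Dab2 on 0 of 4 2i and 4 of 6 PD arrays. Dab2 was therefore only bounded, at least 1.18-fold lower in 2i. The summed signal of the 7 markers was 188 to 219 in 2i and 329 to 486 in PD. With 5 of the 7 undetected, the difference in this sum mostly restates that of Sox7 (means 6.05 in 2i and 7.91 in PD), already among the 15 deepest falls. The part of this signal in the falls of the collagen and laminin genes was not tested.

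Of 5 measured streak and mesoderm genes Fgf17 (-0.82) and Gsc (-0.44) fell, and of 6 neural genes Zfp521 (-0.99) and Hesx1 (-0.38) fell. These were 40% and 33.3% of the measured genes, against 12.2% of all genes, and 0 rose in either list. The 5 mesoderm markers summed to 115 to 130 in 2i and 115 to 125 in PD with 4 of the 5 detected on no array. The 5 neural markers summed to 108 to 127 in 2i and 118 to 137 in PD with 4 of the 5 detected on no array. Of 13 trophoblast genes Gata2 (0.60) and Krt7 (0.31) rose while Krt8 (-0.77), Rhox6 (-0.64), Tead4 (-0.49) and Gata3 fell, the last being detected on 0 of 4 2i and 1 of 6 PD arrays and so without a fold. Thus 15.4% rose and 30.8% fell, against 11.4% and 12.2% of all genes. The trophoblast markers summed to 138 to 168 in 2i and 136 to 169 in PD, and Cdx2 and Elf5 were at 0 detected arrays.

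Thy1, a surface protein of fibroblasts, lay between 5.69 and 6.23 in 2i and between 4.99 and 5.40 in PD (change 0.88 ± 0.11, adjusted p = 1.52e-05, limma). Its feeder list otherwise had Vim (-0.48) and Fbn1 (-0.30) lower and 2 genes that did not pass. The summed feeder markers were 238 to 272 in 2i and 217 to 239 in PD.

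Germline genes were mostly higher in 2i. Of 41 listed genes 19 were measured, of which 13 rose (68.4%, against 11.4% of all genes), 1 fell and 5 did not pass, with a median of 0.59. The 2-fold call as higher was met by 4 (Fkbp6, Rhox5, Xlr4a and Fthl17f), against 0.467% of all genes. These 4 are among the highest rises already described, and the list was chosen with earlier results known. The count is therefore only a description. Only 8 of the 19 were detected on all 10 arrays. Those that rose included, beside Fkbp6, Rhox5, Xlr4a and Fthl17f, the RNA-binding protein gene Dazl (0.94), Tex19.1 (0.92), the testis TFIID subunit gene Taf7l (0.86), Stk31 (0.79), the meiotic cohesin gene Smc1b (0.76), Hormad2 (0.59) and the piRNA factor gene Piwil2 (0.33). Dazl read 6.21 and 6.13 in B18 and 6.33 and 6.71 in B20 cells in 2i, against 5.07, 5.64 and 5.44 in B18 and 5.21, 5.46 and 5.62 in B20 cells in PD. Tex19.1 lay between 9.78 and 10.33 in 2i and between 8.83 and 9.39 in PD. In both genes every 2i array was above every PD array. Taf7l was detected on 2 of 4 2i and 1 of 6 PD arrays, Stk31 on 2 of 6 PD arrays, and Hormad2 and Fthl17f on 3 of 6 PD arrays. Their PD levels lay near background, which limits the precision of the size of their changes.

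The germ cell helicase gene Ddx4 (-0.02) and the retrotransposon silencing gene Asz1 (0.01) did not pass. Rhox6 fell by 0.64 on the log2 scale, while its family member Rhox5 rose. Rhox6 read 5.20 and 4.97 in B18 and 5.31 and 5.24 in B20 cells in 2i, against 5.47, 4.69 and 5.27 in B18 and 6.70, 6.71 and 6.08 in B20 cells in PD, so the fall lay in B20 (-1.22, adjusted p = 0.00069) and the difference between the lines passed narrowly (-1.17, adjusted p = 0.049, limma). When only genes detected on all 16 arrays were kept, 6 germline genes rose. That filter also shortened the list, as only 8 of its 19 measured genes were detected on every 2i and PD array. Among all 7412 genes kept by the filter, 938 rose.

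The shares of each list that passed in either direction are drawn in the bar chart of gene lists.

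**Figure D2:**
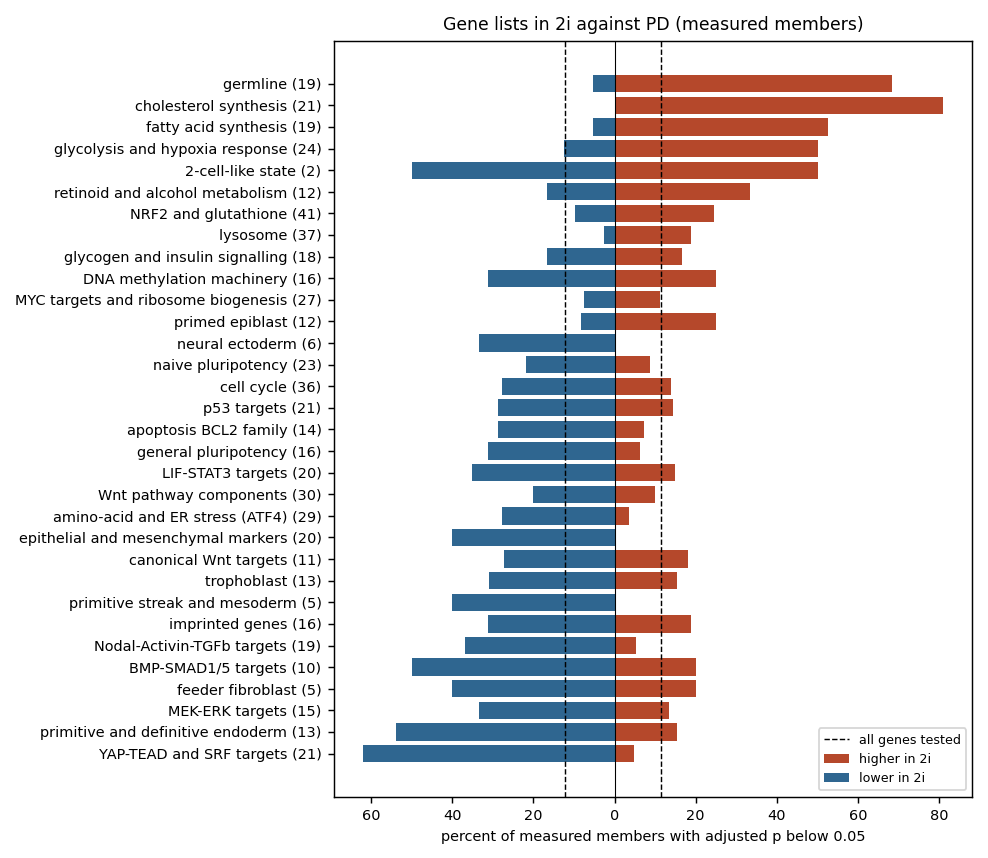
Percent of the measured members of each of 32 gene lists (number measured in brackets) that passed at an adjusted p below 0.05 as higher (right, red) or lower (left, blue) in 2i than in PD, ordered by median change. Dashed lines mark 11.4% and 12.2% for all genes tested. Cholesterol synthesis (81.0% higher) and YAP-TEAD and SRF targets (61.9% lower) reach farthest on either side.

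Targets of YAP and TEAD, which relay cell contact and tension, and of SRF, which relays actin dynamics and growth factors, were lower in 2i as a group. Of 21 measured genes 13 fell (61.9%, against 12.2% of all genes), 1 rose and 7 did not pass (median -0.40). The number that fell was 11 to 15 over the alternatives run. Ccn1 (Cyr61), a matricellular protein and direct YAP target, read 4.74 and 5.73 in B18 and 5.42 and 5.86 in B20 cells in 2i, against 6.99, 7.62 and 7.74 in B18 and 7.39, 6.46 and 7.73 in B20 cells in PD. All 2i arrays were lower, and the change was -1.88 ± 0.23 (3.69-fold, adjusted p = 1.52e-05, limma), with -1.40 and -1.30 from its 2 other probes. Ccn2 (CTGF), its paralog, read 9.42 and 10.07 in B18 and 9.65 and 9.94 in B20 cells in 2i, against 10.93, 11.28 and 11.52 in B18 and 11.17, 10.53 and 11.09 in B20 cells in PD. The groups were again apart (change -1.32 ± 0.16, adjusted p = 1.46e-05, limma).

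The others that fell were Krt8, the LIM protein gene Ajuba (-0.68), the actin-binding Cnn2 (-0.64), Amotl2 (a YAP-binding angiomotin, -0.61), Srf itself (-0.61), the transcription factor gene Tead4 (-0.49), the tropomyosins Tpm2 (-0.46) and Tpm1 (-0.42), the kinase gene Nuak2 (-0.40), filamin A (Flna, -0.35) and vinculin (Vcl, -0.31). Srf lay between 7.34 and 7.90 on the 2i arrays and between 8.04 and 8.57 on the PD arrays. Yap1 (-0.13) and Wwtr1, which encodes the YAP paralog TAZ (0.04), did not pass.

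Promoter windows of 250 bases before the start site were searched in RefSeq sequence of mouse build GRCm38.p6 for the letters CATTCC on either strand, the core of the TEAD site. They were held by 10 of the 17 measured members with a window (58.8%), against 12.5% of all 7125 tested genes with a window, and 6 of the 10 fell, as did 4 of the 7 members without the letters. Stretches of 4 of these 6 are shown because they belong to genes that fell and hold the letters within the window. Capitals mark CATTCC or its complement GGAATG, and each stretch runs 5′ to 3′ on the strand of the gene.
Ccn1 (chr3:145650006-145650105, minus strand): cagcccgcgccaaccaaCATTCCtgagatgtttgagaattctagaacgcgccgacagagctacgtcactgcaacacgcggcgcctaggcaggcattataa
Amotl2 (chr9:102717684-102717783, plus strand): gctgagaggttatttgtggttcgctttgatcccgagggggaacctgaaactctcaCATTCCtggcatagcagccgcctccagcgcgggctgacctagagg
Tpm1 (chr9:67049234-67049333, minus strand): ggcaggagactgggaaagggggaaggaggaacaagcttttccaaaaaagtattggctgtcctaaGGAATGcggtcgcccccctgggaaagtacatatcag
Ajuba (chr14:54577782-54577881, minus strand): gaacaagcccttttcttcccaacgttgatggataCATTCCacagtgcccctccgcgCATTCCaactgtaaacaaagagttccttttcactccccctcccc

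Ajuba holds the letters 2 times in this stretch, and Ccn1, Amotl2 and Tpm1 hold them 1 time each. The list was drawn up from known targets of these factors, and the letters are a description of its promoters.

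Fosb, Egr2, Fos and Egr1, immediate-early genes that answer to ERK and SRF within minutes, had lower means in 2i but varied widely between arrays of 1 medium. Fosb read 4.75 and 6.38 in B18 and 5.47 and 5.78 in B20 cells in 2i, against 5.99, 7.41 and 7.89 in B18 and 8.19, 5.36 and 8.63 in B20 cells in PD. B18 PD replicate 1 and B20 PD replicate 2 were low, and the groups overlapped. The change of -1.65 ± 0.52 had an adjusted p of 0.0298, and those of Egr2 (-1.34), Fos (-1.18) and Egr1 (-1.12) had adjusted p-values of 0.0306, 0.0329 and 0.049 (limma). Each of these calls was lost when 1 of several arrays was left out (B18 2i replicate 1, B20 2i replicate 1, B18 PD replicates 2 and 3, or B20 PD replicates 1 and 3), with the highest adjusted p at 0.246 for Egr1 without B20 2i replicate 1. In B18 PD replicate 1 and B20 PD replicate 2, where Fosb was low, Ccn1 read 6.99 and 6.46, the lowest of its PD values but still above all 2i arrays.

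Of the 15 measured MEK-ERK targets 2 rose (13.3%) and 5 fell (33.3%), against 11.4% and 12.2% of all genes. Without B18 2i replicate 1 the counts were 0 and 2, and over all alternatives 0 to 2 rose and 2 to 7 fell. Dusp6, a phosphatase of ERK, fell by 0.35 and Epha2, a receptor tyrosine kinase, by 0.72 on the log2 scale, while Etv4 (0.52) and Etv1 (0.49) rose. Of 20 LIF-STAT3 targets Cish (-0.71), Junb (-0.70), Zfp36 (-0.51), Pim3 (-0.43), Socs2 (-0.39), Klf4 and Fos fell and Bcl3 (0.44), Icam1 (0.41) and Stat3 (0.25) rose, though only 4 fell and 1 rose without B20 2i replicate 1. In all 35% of the LIF-STAT3 list fell and 15% rose, against 12.2% and 11.4% of all genes. Cish, a STAT-induced feedback inhibitor, lay between 6.54 and 7.12 in 2i and between 7.45 and 7.72 in PD, without overlap (adjusted p = 1.55e-05, limma), whereas Socs3 (0.12) did not pass.

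**Figure D3:**
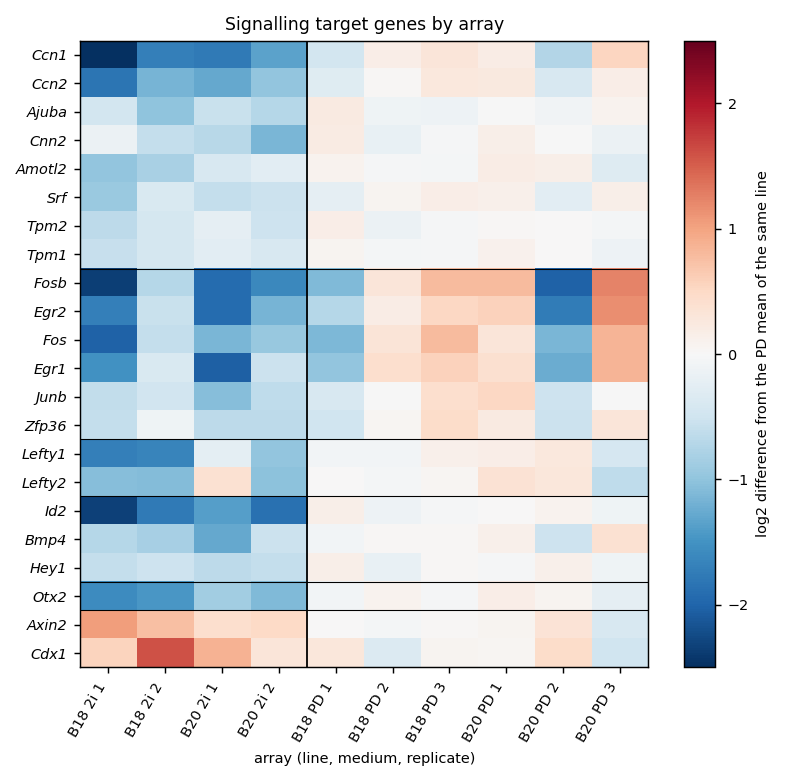
Difference of each array from the PD mean of the same line (colour, log2 units, blue lower and red higher) for 22 genes in rows and the 10 arrays in columns, the 4 2i arrays left of the vertical line and the 6 PD arrays right of it. Rows run from YAP-TEAD and SRF targets through immediate-early, Nodal and BMP genes to Otx2, Axin2 and Cdx1, and in the immediate-early rows B18 PD 1 and B20 PD 2 are as blue as some 2i arrays.

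Several Nodal and Activin targets were lower in 2i. Among 19 measured genes were 7 that fell (36.8%, against 12.2% of all genes), Ccn1 and Ccn2 among them, 1 that rose (5.26%, against 11.4%) and 11 that did not pass (median -0.22). Lefty1, a secreted inhibitor of Nodal, read 7.46 and 7.53 in B18 and 8.72 and 7.99 in B20 cells in 2i, against 9.12, 9.10 and 9.31 in B18 and 9.13, 9.22 and 8.56 in B20 cells in PD. The B18 groups were far apart and the B20 groups overlapped by 1 array, B20 PD replicate 3. The change was -1.15 ± 0.13 (adjusted p = 9.37e-06, limma), at -1.68 in B18 and -0.62 in B20, and the difference between the lines had an adjusted p of 0.053. Lefty2 fell by 0.70 ± 0.21 on the log2 scale (adjusted p = 0.0231, limma). That call was lost without B18 2i replicate 1 or 2, B20 2i replicate 2, or B20 PD replicate 1 or 2. Nodal (-0.22) did not pass.

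Of 10 BMP-SMAD1/5 targets 5 fell (50%, against 12.2% of all genes) and 2 rose (20%, against 11.4%). Their median was -0.22, or -0.08 with Gata3, detected on no 2i array, set to no change. Id2, an inhibitor of basic helix-loop-helix factors, read 5.31 and 5.86 in B18 and 6.49 and 6.00 in B20 cells in 2i, against 7.79, 7.50 and 7.62 in B18 and 7.86, 7.95 and 7.76 in B20 cells in PD. All 2i arrays were at least 1 log2 unit below the lowest PD array, for a change of -1.83 ± 0.17 (3.56-fold, adjusted p = 6.71e-07, limma), and its other probe gave -0.71. The ligand gene Bmp4 fell by 0.84, Hey1 by 0.59 and Id4 by 0.41 on the log2 scale, while Bmp7 rose (0.65). Id1 was near background in both media (detected on 1 of 4 2i and 3 of 6 PD arrays), and its difference of -0.03 had a wide interval of -0.67 to 0.60. Id3 (-0.08) did not pass.

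Cholesterol synthesis genes rose together. Of 21 measured genes 17 rose (81.0%, against 11.4% of all genes), none fell and 4 did not pass, with a median of 0.39 (0.31 in B18 and 0.54 in B20). The count was 12 to 17 over the alternatives run. Dhcr7, the last enzyme of the pathway, read 7.32 and 7.28 in B18 and 7.34 and 6.73 in B20 cells in 2i, against 6.48, 6.68 and 6.55 in B18 and 5.84, 5.61 and 5.98 in B20 cells in PD. Every 2i array was above every PD array (change 0.98 ± 0.12, 1.97-fold, adjusted p = 2.57e-05, limma). Cyp51, the lanosterol demethylase, read 9.51 and 9.45 in B18 and 9.17 and 8.93 in B20 cells in 2i, against 8.72, 8.89 and 8.88 in B18 and 8.13, 8.08 and 8.01 in B20 cells in PD (change 0.82 ± 0.08, adjusted p = 8.19e-07, limma). B20 cells were lower than B18 cells in both media, and the groups were apart.

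Stard4, a sterol carrier, rose by 0.82, Fdps (farnesyl diphosphate synthase) by 0.67, Msmo1 (a sterol methyl oxidase) by 0.63, Tm7sf2 by 0.55 and Hsd17b7 by 0.52. The regulators Srebf2, which encodes SREBP2 (0.43), and Insig1, its endoplasmic reticulum anchor (0.42), rose too, as did the mevalonate pathway genes Idi1 (0.45), Mvd (0.39) and Pmvk (0.35) and the squalene epoxidase gene Sqle (0.36). Nsdhl (0.34), Ebp (0.29) and Acat2 (0.28) rose as well. Sc5d (0.26), Lss (0.18) and Scap, which escorts SREBP (-0.13), did not pass. Hmgcs1 was not among the genes tested. With arrays scaled to the median of all probes, which shifts the median gene by -0.10, Sqle, Pmvk, Nsdhl, Ebp and Acat2 no longer passed.

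The promoter windows of this list were searched for CCAAT or its complement ATTGG, the NF-Y box that SREBP sites are known to need beside them, and for CACCCCAC or GTGGGGTG, a core of the sterol response element. The NF-Y letters were in 14 of 16 windows (87.5%), against 42% of all 7125, and 12 of the 14 genes rose. Without the letters Acat2 rose and Scap did not pass. Of the whole list 81% rose, so the share among genes with the letters is near that of the list. The sterol element letters were in 1 of 16 (Acat2, 6.25%), against 3.54% of all. Stretches of 100 bases just before the start sites of 4 genes that rose are shown because they hold the NF-Y letters, in capitals, 5′ to 3′ on the strand of the gene in GRCm38.p6.
Dhcr7 (chr7:143830114-143830213, plus strand): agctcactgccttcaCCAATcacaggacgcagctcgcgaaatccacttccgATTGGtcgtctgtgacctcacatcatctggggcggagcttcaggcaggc
Msmo1 (chr8:64733579-64733678, minus strand): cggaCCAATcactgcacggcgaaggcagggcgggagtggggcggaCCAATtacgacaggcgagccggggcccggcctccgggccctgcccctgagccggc
Idi1 (chr13:8885506-8885605, plus strand): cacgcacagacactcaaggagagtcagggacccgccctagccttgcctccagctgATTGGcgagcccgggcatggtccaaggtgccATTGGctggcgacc
Cyp51 (chr5:4104698-4104797, minus strand): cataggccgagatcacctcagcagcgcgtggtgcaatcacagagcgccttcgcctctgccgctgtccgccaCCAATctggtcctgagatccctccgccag

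Dhcr7, Msmo1 and Idi1 hold the box 2 times in these stretches and Cyp51 1 time. The letters are short and common, and their presence is a description of these promoters.

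Fatty acid synthesis genes followed in part. Of 19 measured 10 rose (52.6%, against 11.4% of all genes), 1 fell (5.26%, against 12.2%) and 8 did not pass (median 0.22, at 0.07 in B18 and 0.29 in B20). The desaturase genes Fads2 (0.81), Scd1 (0.77), Scd2 (0.63) and Fads1 (0.45), the acetyl-CoA synthetase gene Acss2 (0.67), the acyl-CoA synthetase gene Acsl3 (0.62) and malic enzyme (Me1, 0.54) rose. Scd1 read 11.19 and 11.25 in B18 and 10.93 and 10.58 in B20 cells in 2i, against 10.59, 10.94 and 10.82 in B18 and 9.54, 9.64 and 9.78 in B20 cells in PD. It was higher in 2i within each line, and the B20 2i arrays overlapped the B18 PD arrays. Fasn was near background in both media (2 of 4 2i and 3 of 6 PD arrays detected), and its difference of -0.04 did not pass. Gpat3, a glycerol phosphate acyltransferase, went the other way. It was detected on 0 of 4 2i and 6 of 6 PD arrays, with mean levels of 4.67 in 2i and 5.90 in PD, and was at least 1.71-fold lower in 2i (adjusted p = 1.68e-07, limma).

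**Figure D4:**
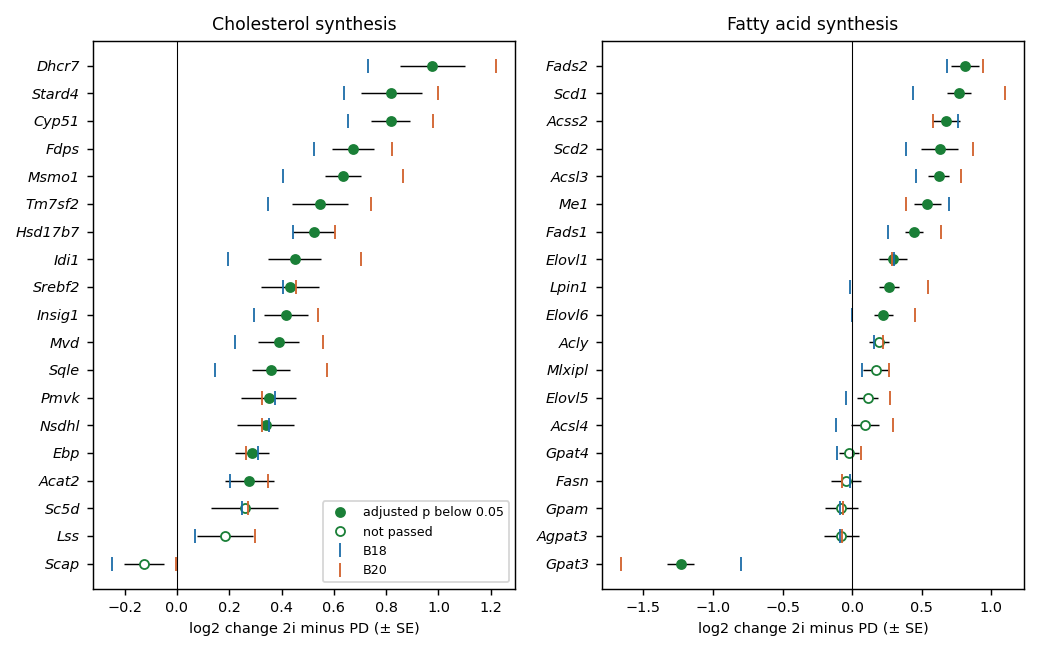
Log2 change, 2i minus PD, of 19 measured cholesterol (left) and the measured fatty acid (right) synthesis genes, with bars of 1 SE, filled points where the adjusted p was below 0.05 and ticks for B18 (blue) and B20 (orange) alone. Of the cholesterol genes drawn 16 of 19 are filled and all 16 lie right of 0, while Gpat3 lies far left among the fatty acid genes.

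Glycolysis and hypoxia genes were more often higher than lower in 2i. Of 24 measured 12 rose (50%, against 11.4% of all genes), 3 fell (12.5%, against 12.2%) and 9 did not pass. Their median was 0.20 over both lines, -0.01 in B18 and 0.34 in B20. Aldoc (0.85), the phosphofructokinase genes Pfkm (0.72) and Pfkp (0.65), Hk1 (0.63) and Ldha (0.56) had the highest rises. Ldha, the lactate dehydrogenase A gene, read 11.27 and 11.56 in B18 and 11.71 and 11.34 in B20 cells in 2i, against 11.25, 11.53 and 11.52 in B18 and 10.11, 10.62 and 10.43 in B20 cells in PD. It differed between media in B20 (1.14, adjusted p = 0.00012) and by -0.02 in B18, and the line difference passed (1.15, adjusted p = 0.016, limma). The glucose transporter genes Slc2a1 (-0.52) and Slc2a3 (-0.31) and Ndrg1 (-0.74) fell. The count of 12 dropped to 6 under median scaling of all probes, and to 8 without B18 2i replicate 1, B20 2i replicate 1 or B18 PD replicate 1. It was 5 when the 10 arrays were fitted with line as an additive term.

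Of 18 genes of glycogen and insulin signalling 3 rose (Igfbp4, Ppp1r3c and Pygb) and 3 fell (Irs2, Gyg and Pik3r1), 16.7% each way and near the 11.4% and 12.2% of all genes. Irs2 lay between 5.06 and 5.45 in 2i and between 6.34 and 7.43 in PD, without overlap (change -1.53 ± 0.14, adjusted p = 6.66e-07, limma). Gys1, the glycogen synthase gene, showed -0.27 and did not pass. Of 27 MYC and ribosome biogenesis genes 3 rose (11.1%, against 11.4% of all genes) and 2 fell (7.41%, against 12.2%), and 22 did not pass (median -0.02).

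Of 41 genes of the NRF2 and glutathione list 10 rose (24.4%, against 11.4% of all genes) and 4 fell (9.76%, against 12.2%). Beside Gpx2 these were led by Nqo1 (0.59), the carbonyl reductase gene Cbr3 (0.57), Ephx1 (0.56) and Gstp1 (0.53), while the glutathione transferase gene Gsto1 fell (-0.93, at 10.45 to 11.17 in 2i and 11.22 to 12.42 in PD). The number that rose was 6 under median scaling and without B20 2i replicate 1. Of 37 lysosomal genes 7 rose (18.9%) and 1 fell (2.7%), with Ctsc far ahead of Atp6v1a (0.53), Gusb (0.38) and Cd63 (0.35), and with Ctsf, cathepsin F, the gene that fell (-0.82). Under median scaling 3 rose and 6 fell, so the list as a whole had no direction that held under both scalings. Of 12 retinoid genes 4 (33.3%) rose (Adh1, the receptor gene Rxra at 0.58, Crabp2 at 0.44 and Rdh11 at 0.31) and 2 (16.7%) fell.

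Of 36 cell cycle genes 10 fell (27.8%, against 12.2% of all genes) and 5 rose (13.9%, against 11.4%), and the falls were led by Cdc20 (-0.75), which activates the anaphase-promoting complex, and the mitotic kinase genes Plk1 (-0.56) and Aurka (-0.51). Cdc20 lay between 10.72 and 10.96 in 2i and between 11.50 and 11.69 in PD, far apart on all 10 arrays (change -0.75 ± 0.07, adjusted p = 6.03e-07, limma). Ccnb1 (-0.34), Cdk1 (-0.32), Cdc25c (-0.26) and Bub1b (-0.25) fell as well. The S phase genes Mcm2 to Mcm7 on the array gave 5 differences from 0.04 to 0.24 and -0.21 for Mcm7, none of which passed, and Pcna rose (0.39). The 5 rises, which also include Cdkn1a, Cdkn2a, E2f2 and Rbl1, were 0 under median scaling and without B20 2i replicate 1, and 2 without B18 2i replicate 1 or 2, B18 PD replicate 1 or B20 PD replicate 1.

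Of 21 p53 targets 6 fell and 3 rose, of 14 BCL2 family genes 4 fell and 1 rose, and of 29 genes of the ATF4 stress list 8 fell and 1 rose. The shares lower were 28.6%, 28.6% and 27.6%, against 12.2% of all genes. Without B20 2i replicate 1 only 5 genes of the ATF4 list fell and 1 p53 target rose. The proapoptotic genes Bbc3 (-0.77), Bcl2l11 (Bim, -0.46), Bnip3l (-0.45) and Pmaip1 (Noxa, -0.42) fell, but the other detected probes of Bbc3 gave -0.09 and 0.14. Bcl2l11 lay between 5.52 and 6.03 in 2i and between 5.91 and 6.54 in PD, with overlap. On the ATF4 list Atf3 (-0.73), Cebpb (-0.72), Atf5 (-0.67) and Dnajb9 (-0.59) fell, while Atf4 itself was at 0.00. Of 20 epithelial and mesenchymal markers 8 fell (40%, against 12.2% of all genes), among them the keratin genes Krt8 (-0.77), Krt17 (-0.65) and Krt42 (-0.49). None rose, with Cdh1, the E-cadherin gene, at 0.18.

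Within B18 alone 1458 genes (15.8%) passed, 660 (7.17%) as higher and 798 (8.67%) as lower, and 121 (1.31%) met the 2-fold call. Within B20 alone 1270 (13.8%) passed, 662 (7.19%) as higher and 608 (6.6%) as lower, and 106 (1.15%) met it, of which 68 (0.739%) were higher. The difference of the change between the lines, B20 minus B18, passed in 158 genes (1.72%), with 100 (1.09%) above 0, and 50 of the 158 (0.543%) differed by at least 1 log2 unit. In 120 of the 158 the change had opposite signs in the lines, and in 22 of these it passed within each line. Across the 9207 genes the changes in the lines had Pearson's r = 0.54 and Spearman's rho = 0.42 and shared a sign in 63.7%, as a description over genes, which are not independent replicates. The number of line differences depended on single arrays. It was 425 without B20 PD replicate 3, which included all 158, and 48 without B18 2i replicate 2, and it was also over 1.5 times lower without B18 2i replicate 1 (72), any 1 of B18 PD replicates 1 to 3 (93, 77 and 68) or B20 PD replicates 1 and 2 (78 and 86).

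**Figure D5:**
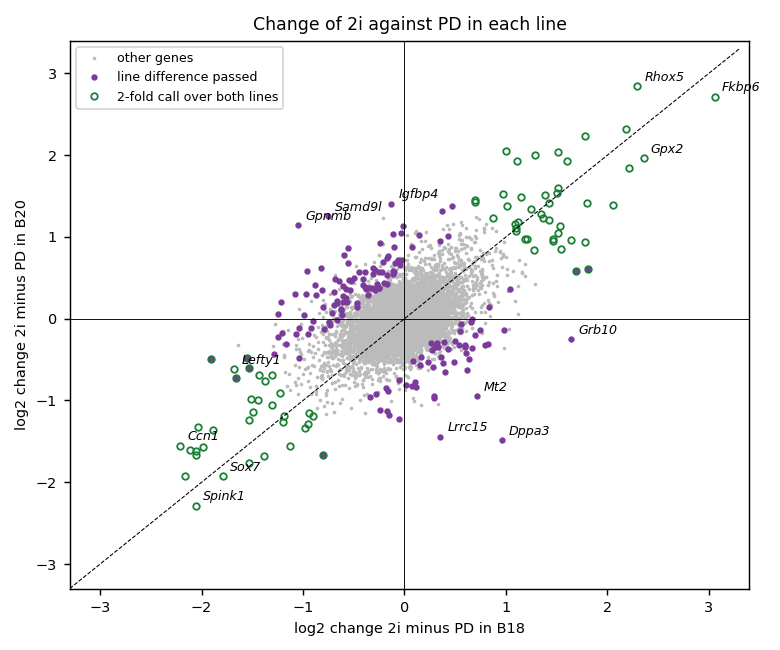
Log2 change, 2i minus PD, in B18 (horizontal) and B20 (vertical) for 9207 genes, with the 77 2-fold calls over both lines circled in green and the 158 genes with a passing line difference in purple. The dashed line marks equal change, and Dppa3, Lrrc15 and Grb10 (lower right) and Gpnmb and Samd9l (upper left) lie far from it.

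Dppa3 (Stella), a maternal and germ cell factor of naive cells, had the widest line difference. It read 5.72 and 6.22 in B18 and 5.27 and 4.70 in B20 cells in 2i, against 4.91, 5.37 and 4.76 in B18 and 6.40, 6.69 and 6.33 in B20 cells in PD. It was thus higher in 2i in B18 (0.96, adjusted p = 0.0023) and lower in 2i in B20 (-1.49, adjusted p = 5.1e-05), a difference of -2.45 (adjusted p = 0.00019, limma). Grb10, an imprinted adaptor of the insulin receptor, read 9.73 and 9.43 in B18 and 10.73 and 10.83 in B20 cells in 2i, against 8.13, 7.94 and 7.74 in B18 and 10.98, 10.99 and 11.10 in B20 cells in PD. The lines differed by about 3 log2 units in PD and by less in 2i, with a rise of 1.65 in B18 and a difference of -0.25 in B20 that did not pass.

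Gpnmb, a transmembrane glycoprotein, lay at 6.07 and 5.95 in B18 and 7.32 and 6.81 in B20 cells in 2i, against 7.16, 6.95 and 7.08 in B18 and 5.81, 5.58 and 6.37 in B20 cells in PD. The order of the lines was opposite in the media. Samd9l showed the same pattern, with -0.76 in B18 and 1.25 in B20, and so did Bmerb1 with -0.83 and 0.62. Zscan4c, of the 2-cell-like state, was too dim for a change to be given. It was detected on 2 of 4 2i and 0 of 6 PD arrays, at means of 4.97 in 2i and 4.39 in PD.

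Set against R2i, in which SB431542 takes the place of CHIR99021, 2539 genes (27.6%) differed in 2i and 114 (1.24%) met the 2-fold call. This comparison shares the 2i arrays with the one above, so the values are only placed side by side. Fkbp6 averaged 9.61 in 2i, 6.72 in PD and 7.86 in R2i, while Rhox5 averaged 7.75 in 2i, 5.18 in PD and 7.93 in R2i, with 2i minus R2i of -0.18 for Rhox5 (adjusted p = 0.345, limma). Gpx2, Ctsc and Adh1 were higher in 2i than in R2i by 1.67, 1.65 and 2.00, beside 2.16, 1.78 and 2.03 against PD. Axin2 and Cdx1 were 0.65 and 0.83 higher in 2i than in R2i.

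Lefty1 and Lefty2 averaged 7.93 and 8.65 in 2i, 9.07 and 9.34 in PD and 4.49 and 4.38 in R2i. Both were detected on 0 of 6 R2i arrays, so their R2i means are background levels. Id1 averaged 5.16 in 2i, 5.19 in PD and 7.25 in R2i, and Dppa3 5.48 in 2i, 5.74 in PD and 7.85 in R2i, with R2i the highest of the 3 media for both. Ccn1, Id2, Wdr45 and Irs2 gave 2i minus R2i of -2.10, -1.90, -1.82 and -1.57, whereas Igfbp7, Dpysl4 and Otx2 differed from R2i by 0.09, -0.19 and -0.04, none of which passed.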

How the data were processed

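RNA was purified with RNeasy columns, amplified and labelled with a TotalPrep kit and hybridised to Illumina MouseRef-8 arrays, per the labels' protocols. The deposited tables give the mean bead intensity of each probe, which the authors left without background subtraction or normalisation, as the values show. Each detection p-value in the deposited tables compares a probe with the negative controls of its array. The authors also deposited normalised log2 values, which differed from those computed here by a constant. GenomeStudio and limma are named in the submitters' processing notes, with versions not given in the sources used here.

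The 16 Ref8 arrays of B18 and B20 were background-corrected against 798 negative controls and quantile-normalised with neqc (limma 3.58.1, R 4.3.3, offset 16). Probes with a detection p below 0.01 on 2 or more arrays were kept, and the brightest kept probe stood for its gene, leaving 9207 genes from 25697 probes. Symbols came from RefSeq GRCm38.p6 for 23788 probes by gene identifier and 685 by accession, and 1224 kept the file's symbol. One mean per line and medium was fitted with lmFit and eBayes (10 residual degrees of freedom), with Benjamini-Hochberg adjustment over all genes. The fit was tested on simulated data. The number of arrays limits the precision.

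Bounds ("at least") apply where no array of a medium detected the gene, and set the mean of the detected medium against the higher of the gene's own signal and the lowest detected signal on each array. Named genes were the 15 highest rises and 15 deepest falls among 2-fold calls that moved alike in B18 and B20 (without genes that carry only predicted or clone names), at most 4 passing members with the highest absolute change of each of 32 lists, cholesterol genes, the 8 widest line differences and a fixed set of regulators, and further list members are given with their values. The members, lists and rules were chosen with earlier results of these data known. Alternatives covered background correction, scaling, the detection filter, the choice of probe, array weights, a replicate block, the 10 arrays alone and each array left out. Scaling to the median of detected probes, and 2i against R2i under all alternatives, were added after seeing the data. Arrays of other lines were not used here, and a few members of the lists are counted but not reported here by name.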

Additional observations from a re-analysis of the deposited data

Results flagged for a closer look

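The change from PD to 2i differed between B20 and B18 by the test of that difference in 8 of the widest cases (limma, Benjamini-Hochberg). The test compared the 10 arrays of 2i and PD, but its estimate of spread also used the R2i arrays. B20 minus B18 was -2.45 for Dppa3 (adjusted p = 0.000188), 2.19 for Gpnmb (adjusted p = 0.000509), 2.01 for Samd9l (adjusted p = 0.000359) and -1.89 for Grb10 (adjusted p = 2.03e-05). It was -1.80 for Lrrc15, a leucine-rich repeat membrane protein that showed 0.35 in B18 and -1.45 in B20 (adjusted p = 0.000786). Igfbp4, an IGF-binding protein, had a difference of 1.54, from 1.41 in B20 and -0.13 in B18 (adjusted p = 0.0025). Mt2, a metallothionein, had -1.66, from -0.95 in B20 and 0.71 in B18 (adjusted p = 0.0204). Bmerb1 had 1.44 (adjusted p = 0.00598).

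The differences of all but Mt2 passed in every alternative run for them, but with no background correction they were smaller, at -0.898 for Dppa3, 1.11 for Gpnmb, 0.96 for Samd9l, 0.738 for Igfbp4 and 0.746 for Bmerb1. A fit of the 10 arrays alone was not among the alternatives run for these genes. Over all genes that fit gave 57 line differences, against 158. Mt2 passed in 15 of 20, with its highest adjusted p, 0.076, without B20 2i replicate 1. Line and chip cannot be told apart in these results.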

How the results depend on the processing

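The 77 2-fold calls became 15 with no background correction, 38 with an offset of 50 and 40 among genes detected on all 16 arrays. In the same order, B18 alone gave 24, 55 and 70, B20 alone 17, 38 and 58, and 2i against R2i 26, 54 and 72. Line differences of at least 1 numbered 8, 16 and 28, with 30 without the detection filter and 33 in a fit of the 10 arrays alone. Line differences of any size numbered 240 with no background correction, 248 with an offset of 50, 96 without the detection filter and 57 with the 10 arrays alone. Of the 2-fold calls 55.8% were higher in 2i, against 45.2% under median scaling of all probes, 33.3% with no background correction and 42.5% among genes detected on all 16 arrays. Of all passing genes 48.2% were higher, against 21.3% under median scaling and 54.6% (1164 higher, 966 lower) with scaling to detected probes, an alternative chosen after seeing the data. Leaving out 1 array gave 74 to 85 2-fold calls and 1725 to 2284 passing genes for 2i against PD, 117 to 138 and 671 to 1640 in B18, 99 to 144 and 639 to 1427 in B20, 29 to 95 and 48 to 425 for the line difference, and 111 to 131 and 1901 to 2717 for 2i against R2i. The low counts of passing genes in B18 (671) and B20 (639) came without B18 2i replicate 2 and without B20 2i replicate 1, which leave 1 2i array in the line, taken to vary like the other groups. Of 164 named genes 0 reversed, and 23 lost their call at most, in the 10 arrays with line additive. Over all genes that fit gave 766 passing as higher and 810 as lower, fewer than the main fit. With the replicate number as a block (replicate block), there were 75 2-fold calls, 45 higher and 30 lower. Same-numbered 2i and PD arrays deviated with correlations of 0.12 and 0.01 in B18 and 0.07 and -0.12 in B20. With 2 2i arrays per line, their deviations from the group mean mirror each other. These values therefore cannot show whether same-numbered samples share more than a number. The causes of these shifts were not tested. Of the 43 higher 2-fold calls 23 were not detected on every PD array, which limits the precision of their size.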

Other observations

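Of 16 measured imprinted genes 3 were higher (18.8%, against 11.4% of all genes; Grb10, Igf2r at 0.47 and Slc22a18 at 0.37) and 5 lower in 2i (31.2%, against 12.2%; Gnas, Cdkn1c, Impact, Igf2 and Cd81, at -0.21 to -0.42). Of 16 genes of the methylation machinery 4 were higher (25%) and 5 lower (31.2%), with 2 higher under median scaling. The higher ones were Mbd4 (0.42), Apobec1 (0.33), the maintenance methyltransferase gene Dnmt1 (0.32) and its partner Uhrf1 (0.26). Gadd45a (-0.58), Prdm14 (-0.58), Dnmt3l (-0.54), Trim28 (-0.41) and Zfp57 (-0.22) were lower.

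The promoters of the 15 highest named rises were poor in CpG. The median ratio of observed to expected CpG over the 250 bases before the start was 0.363 in the 13 with a window, 0.788 in 9 of the 15 deepest falls and 0.73 over all tested genes with a window.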
